A study of Mus musculus with 342 samples.

Results

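Slc10a1, Slco1a1, Slco1a4 and Slc22a7 encode 4 carriers that bring bile acids and organic anions from blood into hepatocytes. They were followed in livers of male Collaborative Cross mice, a panel of recombinant inbred lines bred from several founder strains. Genes were taken from the probe sets whose platform annotation names exactly 1 gene, which gave 9093 genes, these 4 among them. They are named by 6 probe sets. Where a gene had more than one, the probe set brightest on average was used (1424898_PM_at for Slc10a1, 1420379_PM_at for Slco1a1), and the other (1450261_PM_a_at, 1449844_PM_at) served as a check. Slco1a4 was read by 1420405_PM_at and Slc22a7 by 1451460_PM_a_at. On this platform "_a" marks a probe set that reads alternative transcripts of one gene.

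Each vehicle mouse received one oral gavage of 0.5% methylcellulose in a volume of 10 ml/kg. Each treated mouse received TAK-875 at 600 mg/kg the same way, and livers were taken 24 h later. TAK-875 (fasiglifam) activates GPR40, a receptor for fatty acids, and its development for type 2 diabetes was ended over liver safety. Mice were about 8 to 10 weeks old when dosed, were assigned to a group by bodyweight and were dosed in pairs of 1 vehicle and 1 treated mouse of the same line. There were 171 pairs on 342 arrays from 44 lines, with 4 pairs in 39 lines and 3 pairs in 5 (CC006/TauUnc, CC065/Unc, CC042/GeniUnc, CC044/Unc and CC053/Unc). No genotype was engineered. A line is 1 inbred genotype, and each array is the whole liver RNA of 1 mouse.

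The product of Slc10a1, NTCP, moves conjugated bile acids together with sodium and carries most of their return from portal blood. The products of Slco1a1 and Slco1a4, OATP1A1 and OATP1A4, work without sodium and accept bile acids, steroid conjugates and many drugs. OAT2, the product of Slc22a7, carries small organic anions and nucleotides. In mouse liver Slco1a1 is known as a male-predominant gene that depends on androgen and growth hormone, and Slco1a4 as a female-predominant gene that activators of the receptor PXR induce.

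Promoters of the 3 carriers that had a promoter entry are given here from RefSeq, build GRCm38.p6. Each is 300 bases long, from 250 before the annotated start to 50 after it. All lie on the minus strand and are written 5' to 3' along the gene: Slc10a1 at chr12:80968656-80968955 (the first of 2 entries), Slco1a1 at chr6:141946913-141947212 and Slco1a4 at chr6:141856171-141856470. Capitals mark matches, on either strand, to 5 motifs of factors known in liver: HNF1 half-site GTTAAT, nuclear receptor half-site AGGTCA, E-box CACGTG, D-box TTATGTAA and STAT5 site TTCNNNGAA.
Slc10a1: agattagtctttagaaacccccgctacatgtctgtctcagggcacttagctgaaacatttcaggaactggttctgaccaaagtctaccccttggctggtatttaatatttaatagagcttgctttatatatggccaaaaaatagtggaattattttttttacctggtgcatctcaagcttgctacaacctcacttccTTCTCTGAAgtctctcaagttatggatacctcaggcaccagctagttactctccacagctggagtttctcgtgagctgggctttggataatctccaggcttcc
Slco1a1: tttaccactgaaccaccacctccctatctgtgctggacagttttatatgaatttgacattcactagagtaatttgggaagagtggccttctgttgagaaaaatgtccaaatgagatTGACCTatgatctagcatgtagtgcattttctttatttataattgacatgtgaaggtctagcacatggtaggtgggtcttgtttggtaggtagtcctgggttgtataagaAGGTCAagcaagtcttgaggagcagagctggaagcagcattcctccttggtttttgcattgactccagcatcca
Slco1a4: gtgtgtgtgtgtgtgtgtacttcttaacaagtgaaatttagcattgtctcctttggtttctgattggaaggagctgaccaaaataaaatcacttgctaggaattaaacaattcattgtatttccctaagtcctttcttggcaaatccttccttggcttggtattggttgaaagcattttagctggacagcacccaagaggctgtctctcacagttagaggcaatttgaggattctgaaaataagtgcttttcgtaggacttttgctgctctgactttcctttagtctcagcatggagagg
The Slc10a1 window held 1 match, the STAT5 letters TTCTCTGAA, whose first base is at position -53 counted from the annotated start. The Slco1a1 window held 2 nuclear receptor half-sites, starting at -134 on the opposite strand and at -24 on the gene's own strand. In the Slco1a4 window none of these letters occurred. Of 32851 promoters of this length, 8.3% held the STAT5 letters, 16.3% the nuclear receptor half-site, 7.1% the HNF1 half-site, 7.15% the E-box and 0.938% the D-box. A match describes letters and is not a site. The 3 windows printed here shared none of the 5 motifs. The window of the second Slc10a1 entry (chr12:80968030-80968329), not printed, held 1 nuclear receptor half-site, at -87 on the gene's own strand. That window thus shared this motif with the Slco1a1 window. Slc22a7 was matched to no entry and is named only.

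Array medians ran from 5.4 to 6.22 on the log2 scale. Each array was correlated with those of its own line and dose, and the median of these correlations was 0.976 for a typical array. In 6 arrays, all from TAK-875 mice, it was below 0.927 (lowest 0.821), and results are given with and without their pairs. The mean of 10 hepatocyte markers lay between 12.12 and 12.80 on vehicle arrays and between 12.10 and 12.79 on TAK-875 arrays. A pair of vehicle mice of CC015/Unc, those of pairs 1 and 3, stood apart. They had the lowest mean levels of 16 genes known as male-biased in liver among all 342 arrays (6.76 and 6.17, other arrays 7.14 to 9.83). They also had the highest mean levels of 16 female-biased genes (6.58 and 6.84, other arrays 3.83 to 6.52). Y-linked Kdm5d (4.86 and 5.14) and Eif2s3y (6.12 and 6.2) were within the range of the other 340 arrays in both (3.33 to 6.02 and 3.95 to 7.55). The TAK-875 mice of pairs 1 and 3 leaned the same way. Their male-biased means were 7.9 and 7.3, ranked 21 and 5 from the lowest. Their female-biased means were 5.7 and 6.52, ranked 14 and 3 from the highest. The TAK-875 mice of pairs 2 and 4 read 8.7 and 8.01 for male-biased and 4.64 and 5.01 for female-biased genes.

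How far the carriers differed between lines without the compound was asked first. All 4 differed between the lines' vehicle mice by limma's moderated F test (4 of 4 called at an adjusted p of 0.05), as did 98.0% of all genes tested, so that the call itself says little about the carriers. What set them apart from each other was the span. A line's level is the mean over its 3 or 4 vehicle mice, with the SD between them.

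Slc10a1 had the narrowest span. On single vehicle arrays its log2 level was 10.22 at the lowest, 11.35 at the median and 11.82 at the highest. Line means ran from 11.67 ± 0.09 (SD, n = 3) in CC042/GeniUnc, followed by CC061/GeniUnc (11.65) and CC041/TauUnc (11.65), to 10.86 in CC004/TauUnc, 10.76 ± 0.15 (n = 4) in CC005/TauUnc and 10.65 ± 0.11 (n = 4) in CC028/GeniUnc. The highest line was 2.04-fold above the lowest (F = 5.15, adjusted p = 5.42e-13). The 4 vehicle mice of CC028/GeniUnc read 10.66, 10.55, 10.79 and 10.58, below every mouse of CC042/GeniUnc (11.73, 11.71 and 11.57). Along the order of lines, no neighbouring lines differed beyond their spread (0 of 43 neighbouring pairs).

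Slco1a1 read 3.96, 8.50 and 10.12 at the lowest, median and highest vehicle array. Its highest lines were CC041/TauUnc (9.66 ± 0.49, n = 4), CC001/Unc (9.31) and CC022/GeniUnc (9.29), and its lowest CC005/TauUnc (7.39), CC028/GeniUnc (7.20 ± 0.68, n = 4) and CC015/Unc (5.68 ± 2.19, n = 4). The lines differed (F = 4.54, adjusted p = 2.74e-11), and no neighbours did beyond their spread (0 of 43). The span of 15.7-fold rested on CC015/Unc, whose vehicle mice read 3.96, 8.54, 3.97 and 6.26, and was 5.47-fold without that line. The values of 3.96 and 3.97 are those of the mice of pairs 1 and 3 and were the lowest Slco1a1 readings of all 342 arrays. Slc22a7 was low in the same mice, at 6.51 and 6.31 against 10.33 and 10.00 in the other two. Slc10a1 was not, at 11.54 and 11.38 against 11.41 and 11.18, and Slco1a4 read 4.51 and 5.84 against 4.52 and 3.87. The part of the sex-biased gene levels of these mice in their carrier levels was not tested.

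Slco1a4 readings had the widest span. Single vehicle arrays read 2.29 at the lowest, 5.39 at the median and 8.79 at the highest. CC071/TauUnc (8.21 ± 0.49, n = 4), CC041/TauUnc (7.96) and CC025/GeniUnc (7.35) were highest, and CC028/GeniUnc (3.01), CC021/Unc (2.81 ± 0.10, n = 4) and CC007/Unc (2.70 ± 0.25, n = 4) were lowest. The mice of CC071/TauUnc read 8.32, 8.79, 7.60 and 8.12 and those of CC007/Unc 2.43, 2.95, 2.54 and 2.88, so that these lines did not overlap. The lines differed (F = 14.86, adjusted p = 3.42e-32). The readings spanned 5.51 log2 units, 45.4-fold as read and 42.0-fold without CC007/Unc. The lowest lines lie far below the array medians and near the lowest value of all probe sets (1.62). The sources used here give no background call, so whether these lines are above background is not known, and these folds describe readings only. Of 43 neighbouring pairs of lines, 2 differed beyond their spread.

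Slc22a7 read 6.31, 9.81 and 11.70 at the lowest, median and highest vehicle array. CC007/Unc, the line with the lowest Slco1a4, had the highest Slc22a7 (11.35 ± 0.24, n = 4), followed by CC024/GeniUnc (11.13) and CC029/Unc (11.12). The lowest were CC059/TauUnc (8.38), CC041/TauUnc (8.33 ± 0.06, n = 4) and CC015/Unc (8.29 ± 2.17, n = 4). CC041/TauUnc was thus among the 3 highest lines for the other carriers and among the 3 lowest for Slc22a7. The span was 8.36-fold (F = 7.80, adjusted p = 1.51e-19), and 1 of 43 neighbouring pairs differed beyond its spread.

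A sequence difference under a probe can change the reading of a line, and level and probe binding cannot be told apart from one probe set. Over the 44 lines the second probe set gave nearly the same order of vehicle levels for Slc10a1 (r = 0.908, rho = 0.887) and Slco1a1 (r = 0.963, rho = 0.957), a description over points that share arrays. Slco1a4 and Slc22a7 had no second probe set to compare.

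**Figure D1:**
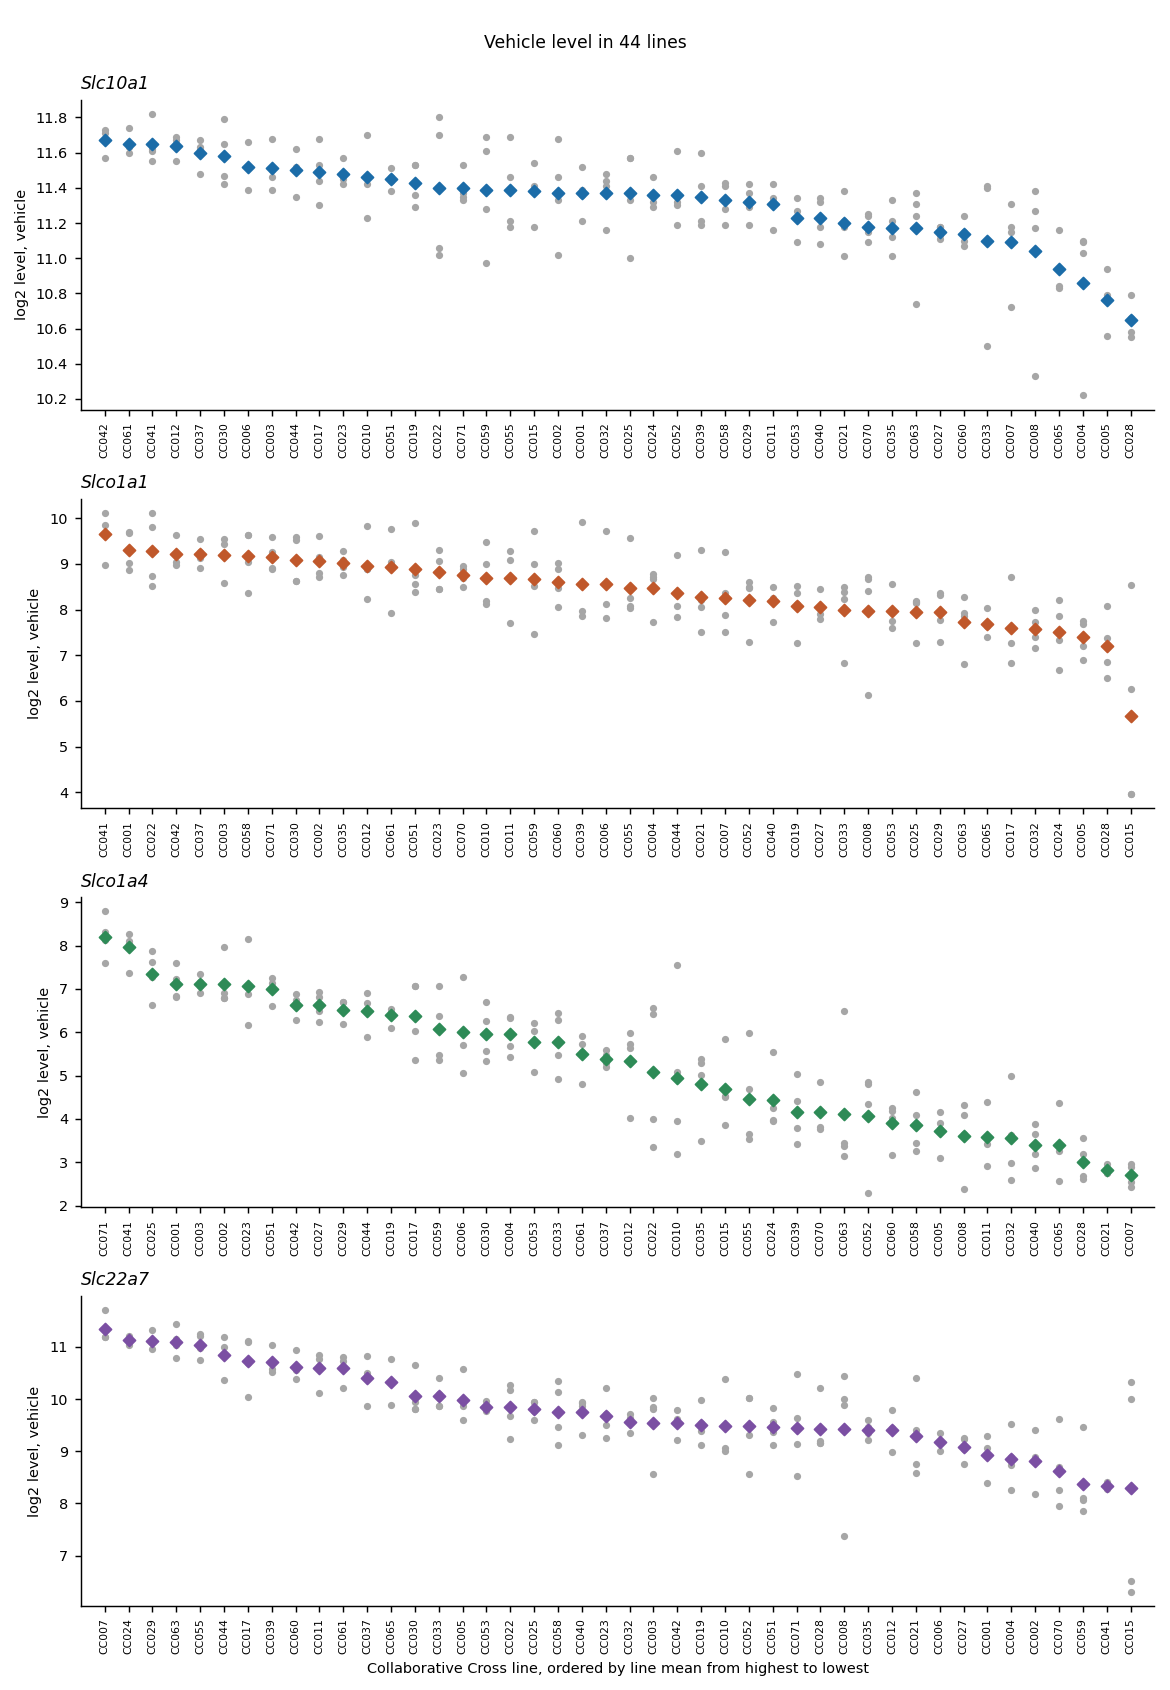
Log2 level of each carrier with vehicle in 44 lines (vertical axis) against the lines ordered by their mean (horizontal axis). Grey points are single mice and diamonds are line means. Slco1a4 descends steadily from 8.21 to 2.70, Slc10a1 stays between 11.67 and 10.65, and the low points of CC015/Unc stand out for Slco1a1.

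Whether TAK-875 changed the carriers over the panel was tested with the line as the unit: the treated minus vehicle difference was taken in each pair, averaged within a line, and the 44 line values were set against 0 with limma. Of the 4 carriers, 2 passed at an adjusted p of 0.05, both lower. Over all genes 27.1% passed, 15.3% higher and 11.9% lower. Slc22a7 fell most, Slco1a1 fell slightly, and neither Slc10a1 nor Slco1a4 passed.

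Slc22a7 read 5.21, 9.03 and 11.24 at the lowest, median and highest TAK-875 array, against 6.31, 9.81 and 11.70 with vehicle, and the ranges overlapped. Within pairs the difference ran from -4.01 over a median of -0.68 to 3.17, and 142 of 171 pairs were lower with TAK-875. It fell by a mean of 0.84 on the log2 scale (SD 0.62, n = 44 lines, 95% interval of the mean -1.03 to -0.65), that is 1.79-fold, with 42 of 44 lines lower (limma adjusted p = 2.75e-10). Among the 9093 genes, 8 changed by at least as much, itself included, and the median SD of a gene's line values was 0.24. In 26 lines every pair was lower and in 1 line every pair was higher. Over all genes and lines, every pair was lower in 9.79% of cases and higher in 10.8%. The 6 pairs with a poorly correlated array had Slc22a7 differences between -4.01 and -0.94, and 3 of them were among the 6 pairs below -3. Without these pairs the mean was -0.80 (adjusted p = 3.44e-10).

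Slco1a1 read 4.83, 8.27 and 10.05 with TAK-875 and 3.96, 8.50 and 10.12 with vehicle at the lowest, median and highest array, again overlapping. Pair differences ran from -3.19 over -0.21 to 3.13, and 102 of 171 pairs were lower. The mean over lines was -0.25 (SD 0.58, n = 44, interval -0.43 to -0.07), 1.19-fold lower, with 31 of 44 lines lower (limma adjusted p = 0.0194). The call depended on the setting. The second probe set gave -0.15 (adjusted p = 0.115), leaving out strain pair 2 in every line gave -0.17 (adjusted p = 0.208) and leaving out strain pair 4 gave -0.22 (adjusted p = 0.102). Without the poorly correlated pairs it was -0.21 (adjusted p = 0.0429), and without pairs 1 and 3 of CC015/Unc -0.29 (adjusted p = 0.00258). Slco1a1 is itself known as male-biased, and of 16 other male-biased genes measured 11 fell and 2 rose (Cyp4a12a and Cyp2d9, neither of which passed once arrays were centred on their medians, when 12 fell). The list's median was -0.13 against 0.01 over all genes, of which 15.3% rose and 11.9% fell. Among 16 female-biased genes 3 rose and 1 fell, with a median of 0.03, and with centred arrays 3 rose and 3 fell. The part of these genes in the Slco1a1 result was not tested.

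Slc10a1 read 9.21, 11.30 and 11.75 with TAK-875 at the lowest, median and highest array, against 10.22, 11.35 and 11.82 with vehicle. Pair differences lay between -2.21 and 0.95 with a median of -0.03. The mean over lines was -0.06 (SD 0.19, n = 44, interval -0.12 to 0.00), and 31 of 44 lines were lower (limma adjusted p = 0.128). It passed where arrays were centred on their medians (-0.07, adjusted p = 0.0265) or CC005/TauUnc was left out (-0.07, adjusted p = 0.0247). The mean in the main setting is 1.04-fold in size.

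Slco1a4 read 2.41, 5.43 and 8.91 with TAK-875 and 2.29, 5.39 and 8.79 with vehicle. Its pair differences ran from -3.28 over 0.09 to 2.71, with 94 pairs higher and 77 lower. The mean over lines was 0.17 (SD 0.78, n = 44, interval -0.07 to 0.41), with 26 lines higher and 18 lower (limma adjusted p = 0.269). The interval leaves room for a mean change in either direction. Single lines lay between -2.32 and 1.54. In the lines with the lowest vehicle readings a fall may not be readable, which limits this mean and the comparisons of carriers and of lines below.

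The carriers were then compared with each other in the same mice. Each of the 6 pairs of carriers was tested by sign changes of the 44 line values (two-sided permutation test, adjusted over the 6). Slc22a7 responded lower than each of the others: by 0.78 against Slc10a1 (interval 0.59 to 0.98, 38 of 44 lines), by 0.59 against Slco1a1 (0.35 to 0.83, 36 lines) and by 1.02 against Slco1a4 (0.66 to 1.37, 35 lines), with adjusted p of 3e-05, 4e-05 and 3e-05. Slco1a1 was lower than Slco1a4 by a mean difference of -0.42 (interval -0.65 to -0.20, 34 of 44 lines, permutation adjusted p = 0.00099). Both genes lie on the minus strand of mouse chromosome 6. Slc10a1 minus Slco1a1 was 0.19 (adjusted p = 0.0199) and Slc10a1 minus Slco1a4 was -0.23 (adjusted p = 0.0376), both by the permutation test. These last differences depended on the pairs kept. With 1 strain pair number left out in every line, Slc10a1 minus Slco1a1 missed the threshold in 2 of 4 cases (0.12 without pair 2 and 0.16 without pair 4, adjusted p = 0.212 and 0.104). Slc10a1 minus Slco1a4 missed it in 3 of 4 cases, without pair 1, 2 or 4 (adjusted p from 0.0786 to 0.18), and without the poorly correlated pairs (-0.22, adjusted p = 0.0515). A shift shared by a whole array cancels in these differences. A fall of Slco1a4 that is not readable in lines with low readings does not cancel. It limits each difference that includes Slco1a4.

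Whether the lines responded differently was tested with the spread between pairs of a line as the error. Slco1a4 (F = 2.31, adjusted p = 0.00633) and Slc22a7 (F = 1.94, adjusted p = 0.0266) passed, Slco1a1 (F = 1.29, adjusted p = 0.25) and Slc10a1 (F = 1.36, adjusted p = 0.197) did not, and 16.2% of all genes passed. Fewer pairs moved these calls: with 1 strain pair number left out in every line, Slc22a7 passed in none of the 4 cases (F from 1.43 to 1.96) and Slco1a4 missed without pair 1 (F = 1.82) or pair 4 (F = 1.78). Line values with their own test follow. Over all genes and lines 1.64% of such tests passed.

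For Slc22a7, 5 lines passed on their own, all lower. Adjustment was within a line, so a call also depends on the other genes there. Of 9093 genes, 432 were called in CC007/Unc, 395 in CC053/Unc, 239 in CC010/GeniUnc, 85 in CC021/Unc and 42 in CC070/TauUnc. CC027/GeniUnc (-1.57), CC011/Unc (-1.50) and CC004/TauUnc (-1.48) did not pass (limma adjusted p = 0.111, 0.135 and 0.0642). Their unadjusted limma p (0.000546, 0.000938 and 0.00109) was below that of CC053/Unc (0.00144). A line's vehicle readings enter both its vehicle rank and its response, for this and the other carriers, so the 2 are not independent. CC007/Unc, highest with vehicle, fell most. Its vehicle mice read 11.70, 11.34, 11.19 and 11.18, its TAK-875 mice 8.79, 9.67, 7.80 and 9.86, and the groups did not overlap. The mean of -2.32 (SD 0.98, n = 4 pairs, adjusted p = 0.000251) is a 5.00-fold decrease. In CC021/Unc the vehicle mice read 10.40, 9.40, 8.76 and 8.58 and the TAK-875 mice 7.88, 6.95, 7.33 and 6.98, again without overlap (-2.0, SD 0.56, adjusted p = 0.00438). CC070/TauUnc (-1.70, adjusted p = 0.0444) had pair differences of -1.20, -0.36, -1.70 and -3.53. CC053/Unc (-1.67, n = 3, adjusted p = 0.0407) had -1.58, -1.40 and -2.04, and CC010/GeniUnc (-1.69, adjusted p = 0.0183) had -1.94, -0.67, -0.14 and -4.01. The last value of CC010/GeniUnc belongs to a poorly correlated array. Without it the line stood at -0.92 (adjusted p = 0.994), and CC053/Unc without its poorly correlated pair stood at -1.81 over 2 pairs (adjusted p = 0.290). CC010/GeniUnc also missed the threshold without pair 1 (-1.61, adjusted p = 0.0664), and CC053/Unc without pair 1 (0.1), 2 (0.626) or 3 (0.134) in every line. CC007/Unc missed it without pair 3 (adjusted p = 0.0524), and CC021/Unc without pair 1 (0.158) or pair 2 (0.243). CC070/TauUnc missed it with arrays centred on their medians (adjusted p = 0.0595) and without any 1 strain pair number (0.0674 to 0.484).

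At the other end, CC003/Unc (0.50), CC008/GeniUnc (0.44) and CC059/TauUnc (0.00) had the highest Slc22a7 responses, and none passed. All 4 pairs of CC003/Unc were higher, by 1.30, 0.30, 0.20 and 0.19. The mean of CC008/GeniUnc rested on pair 4 (3.17), whose vehicle mouse read 7.37 against 9.88, 10.44 and 10.00 in the others, and its pair 3 was lower by -1.75. CC024/GeniUnc, second highest with vehicle, had pair differences of -0.19, -0.74, -0.39 and 0.15.

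For Slco1a4, CC019/TauUnc passed. Its vehicle mice read 6.11, 6.48, 6.43 and 6.54 and its TAK-875 mice 3.59, 4.06, 3.50 and 5.16, without overlap. The mean of -2.32 (SD 0.66, n = 4 pairs, adjusted p = 0.0327) is 4.98-fold in size and was 1 of 7 genes called in that line. The call was lost when any 1 pair was left out (adjusted p from 0.0639 to 0.194), though the value stayed between -2.11 and -2.63. CC017/Unc (-1.56) and CC055/TauUnc (-1.22) were next lowest. CC039/Unc (1.54), CC053/Unc (1.37) and CC008/GeniUnc (1.21) were highest, and none of these 5 passed. The pairs of CC039/Unc differed by 2.20, -0.30, 1.56 and 2.71 and those of CC053/Unc by 1.24, 0.74 and 2.14.

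For Slc10a1, CC005/TauUnc passed, in the opposite direction to the panel's mean. Its vehicle mice read 10.56, 10.77, 10.94 and 10.79 and its TAK-875 mice 11.43, 11.54, 11.10 and 11.30, so that this line with low vehicle values came to the middle of the panel (0.58, SD 0.31, adjusted p = 0.0147, 1.49-fold). In that line 1031 of 9093 genes were called, and with arrays centred on their medians the Slc10a1 value was 0.45 (adjusted p = 0.0565). It also missed the threshold without pair 1 (0.202) or pair 2 (0.168). CC008/GeniUnc (0.27) and CC065/Unc (0.26) followed, and CC012/GeniUnc (-0.34), CC028/GeniUnc (-0.47) and CC010/GeniUnc (-0.47) were lowest, none of them called. CC028/GeniUnc, lowest with vehicle, went lower in all 4 pairs (-0.03, -0.64, -1.08 and -0.11). In CC010/GeniUnc the mean rested on pair 4 (-2.21), beside -0.23, 0.23 and 0.35, and was 0.12 without it.

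For Slco1a1 no line passed (0 of 44). CC041/TauUnc was lower in all pairs (-1.59, -1.12, -1.97 and -0.53, mean -1.30, adjusted p = 0.0604), as was CC052/GeniUnc (-1.44, -0.78, -0.98 and -1.75, mean -1.24, adjusted p = 0.0952). CC004/TauUnc (-1.07) held a pair at -2.98 with a poorly correlated array and stood at -0.43 without it. CC015/Unc had the highest mean (1.24), made of 3.10 and 3.13 in pairs 1 and 3, whose vehicle mice are described above, and -0.86 and -0.40 in the others. CC025/GeniUnc (1.09) and CC033/GeniUnc (0.67) followed, and all pairs of CC033/GeniUnc were higher (0.69, 0.84, 0.88 and 0.26).

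**Figure D2:**
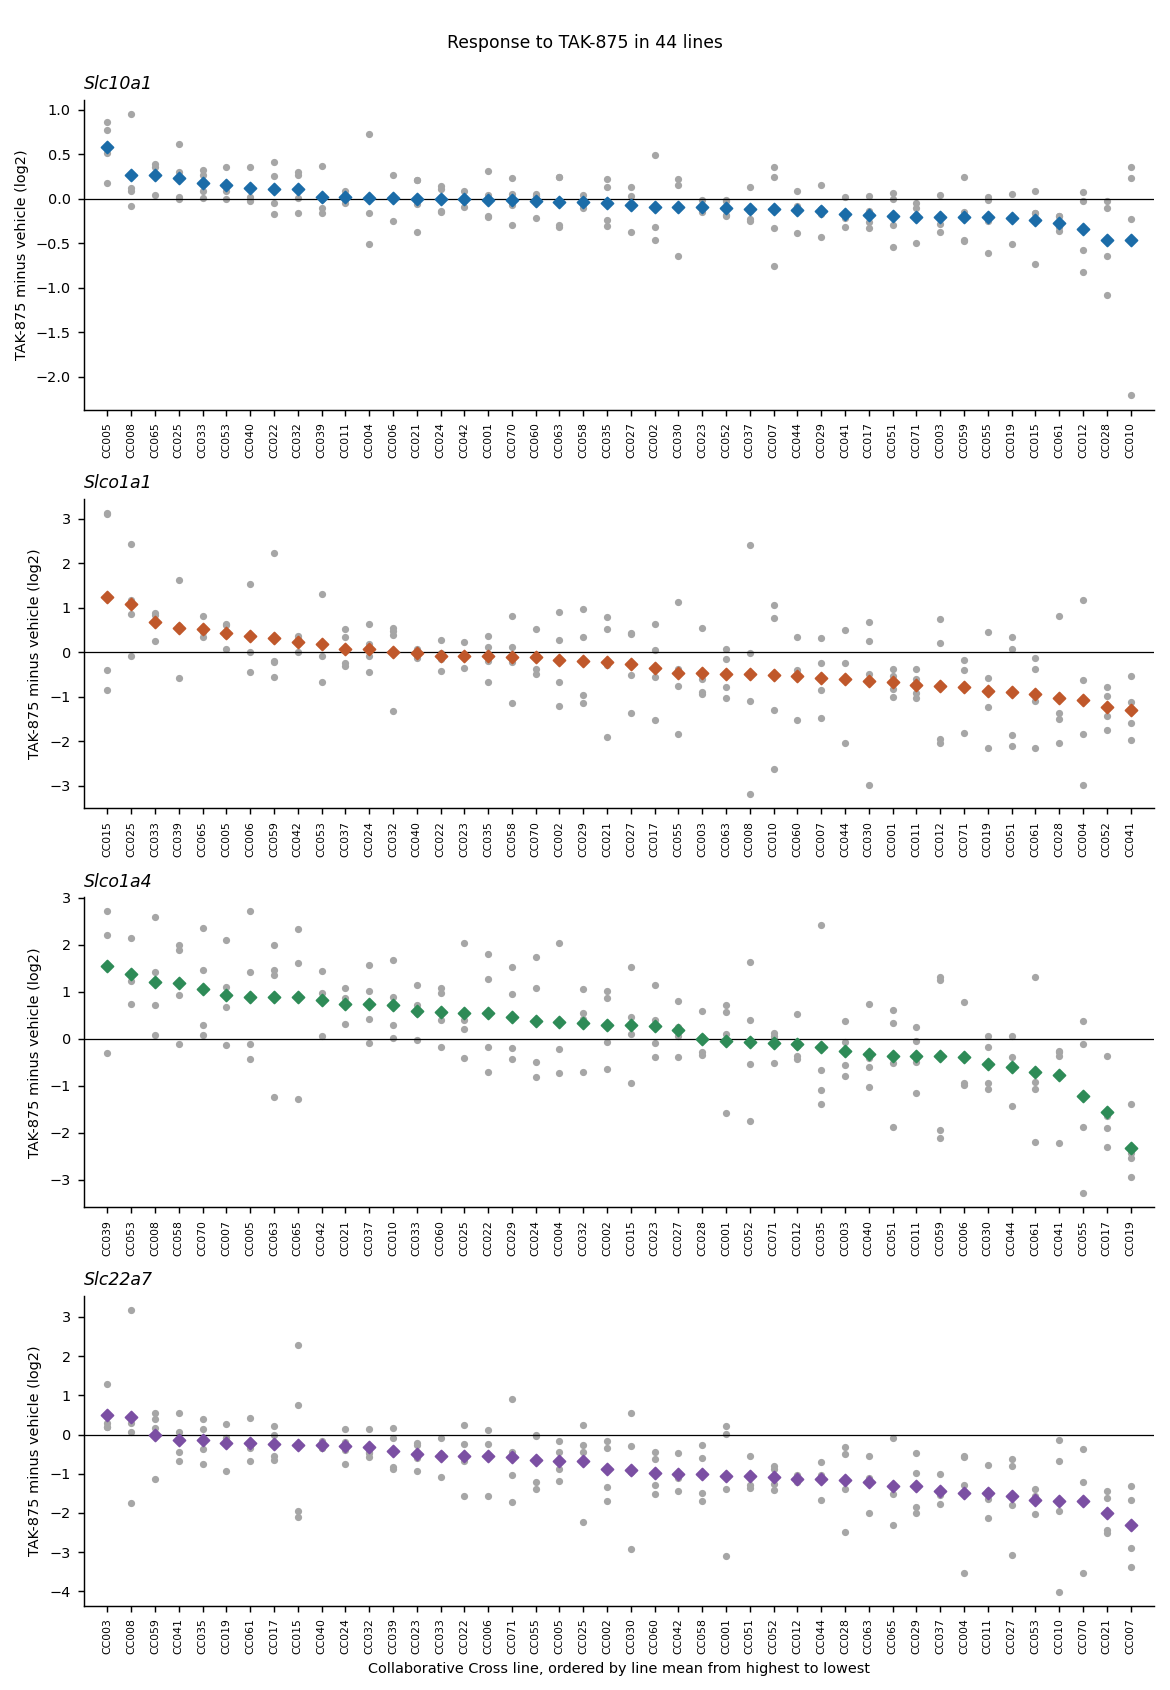
TAK-875 minus vehicle (log2, vertical axis) for each carrier in 44 lines ordered by their mean (horizontal axis). Grey points are pairs of mice, diamonds are line means and the horizontal line is no change. For Slc22a7 nearly all diamonds lie below 0, down to -2.32 in CC007/Unc, while for Slco1a4 they run from 1.54 to -2.32 across it.

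How far the order of lines held under the compound was read from the level with TAK-875 against the level with vehicle, which come from different mice. Over 44 lines r was 0.854 for Slco1a4 (rho = 0.854), 0.749 for Slc22a7 (rho = 0.753), 0.685 for Slco1a1 (rho = 0.682) and 0.657 for Slc10a1 (rho = 0.559). Each r had a permutation p of 1e-05, the smallest that the permutations can give, and an adjusted p of 2.5e-05 over 10 relations. Without the 2 lines farthest from the median vehicle level r was 0.833, 0.761, 0.627 and 0.620 in the same order. A line high in a carrier with vehicle thus tended to be high with TAK-875 too. Slc22a7 in CC007/Unc, first with vehicle at 11.35, stood at 9.03 ± 0.94 (SD, n = 4) with TAK-875.

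**Figure D3:**
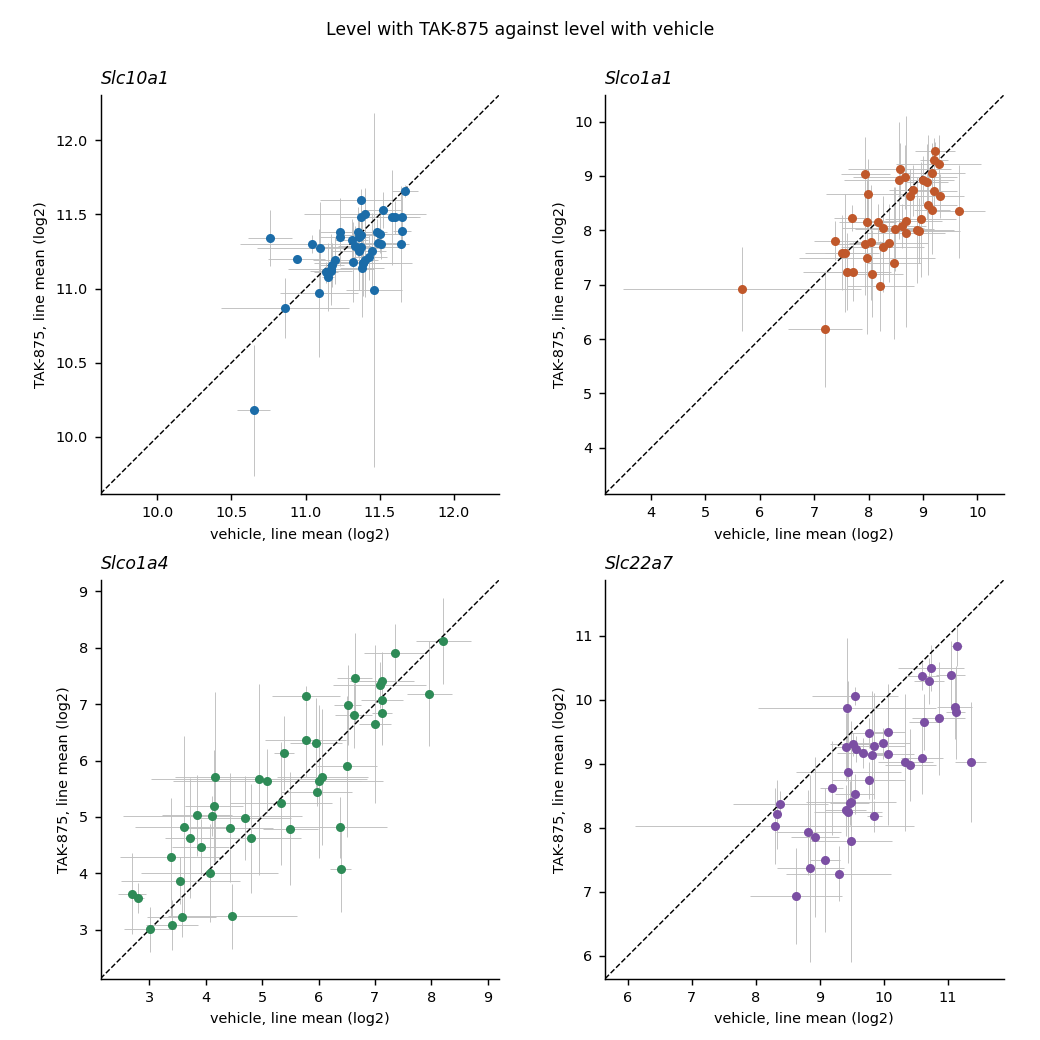
Line mean with TAK-875 (vertical axis, log2) against line mean with vehicle (horizontal axis, log2) for each carrier, 44 lines. Bars are SD between mice and the dashed line marks equal levels. Slco1a4 points rise with the vehicle level (r = 0.854) and lie on both sides of the dashed line, with CC019/TauUnc (6.39 with vehicle, 4.08 with TAK-875) far below it and CC008/GeniUnc (3.61 and 4.82) above it. Most Slc22a7 points lie under it.

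The line mean responses of 3 carriers went together over the 44 lines. Over 44 lines the response of Slc10a1 went with that of Slco1a1 (r = 0.486, permutation p = 0.00069, adjusted p = 0.00138, rho = 0.507) and of Slco1a4 (r = 0.451, permutation p = 0.00251, adjusted p = 0.00418, rho = 0.539), and Slco1a1 went with Slco1a4 (r = 0.433, permutation p = 0.00373, adjusted p = 0.00533, rho = 0.447). Without the 2 lines farthest on the horizontal axis r was 0.475, 0.525 and 0.471. The 3 values of rho had permutation adjusted p of 0.000933, 0.00036 and 0.00384. For Slc22a7 no relation was detected with Slc10a1 (r = 0.0626, rho = -0.0658, adjusted p = 0.684) or Slco1a1 (r = 0.14, rho = 0.16, adjusted p = 0.406). Against Slco1a4 it ran the other way (r = -0.371, permutation p = 0.0125, adjusted p = 0.0156, rho = -0.412 with adjusted p = 0.00706, and r = -0.311 without the 2 farthest lines). CC007/Unc and CC021/Unc, with the largest Slc22a7 falls (-2.32 and -2.0), had the lowest Slco1a4 vehicle readings (2.70 and 2.81). A fall of Slco1a4 may not be readable there, and its responses were 0.94 and 0.75. The relation without these lines was not tested. The 2 responses in such a relation come from the same arrays. They share any shift of a whole array and the variation between mice of a line. After subtracting sampling variance, the response SD between lines was 0.09 for Slc10a1, 0.25 for Slco1a1 and 0.58 for Slco1a4. Between pairs of a line the SD was 0.33, 1.03 and 1.03. For Slc10a1 and Slco1a1 no difference of response between lines was detected, so these r values do not separate lines from mice. With arrays centred on their medians r was 0.34 for Slc10a1 with Slco1a1 and 0.28 for Slc10a1 with Slco1a4, and the latter no longer passed (adjusted p = 0.0873).

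**Figure D4:**
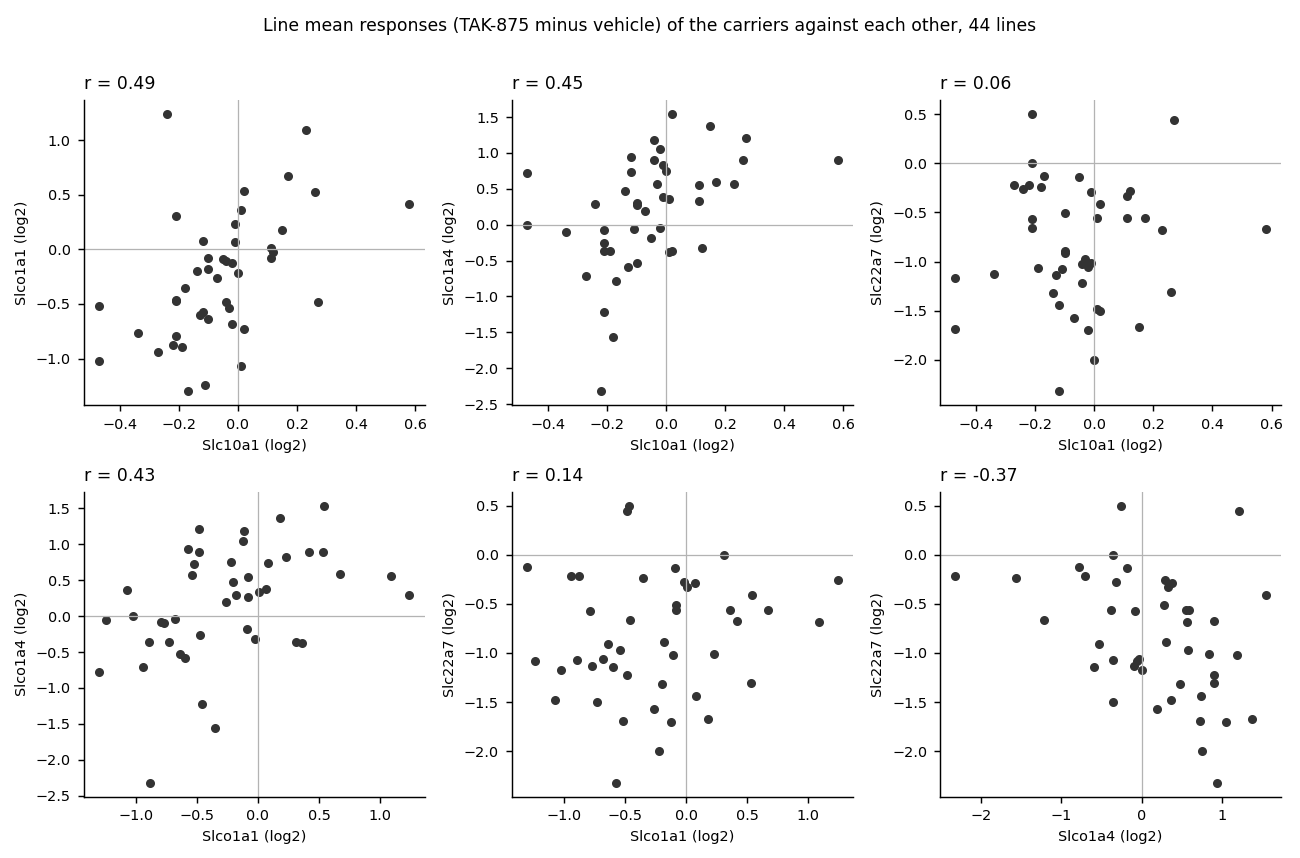
Line mean responses (TAK-875 minus vehicle, log2) of the carriers against each other for the 6 pairs, 1 point per line and 44 lines in each panel. Slc10a1, Slco1a1 and Slco1a4 slope upward against each other (r = 0.49, 0.45 and 0.43), and Slc22a7 slopes downward against Slco1a4 (r = -0.37).

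The genes most like each carrier were taken by Pearson r over the 44 line means among all genes tested, as a description without a test. For the response of Slc10a1 they were Iyd (0.815), which recovers iodide from iodotyrosine, Akr1d1 (0.811), a reductase of bile acid synthesis, and Slc2a2 (0.797), the hepatocyte glucose transporter GLUT2. For Slco1a1 they were Sult2a8 (0.871), a hepatic sulfotransferase, Cyp2j5 (0.860), an epoxygenase, and F13b (0.830), a coagulation factor subunit. For Slco1a4 they were the lipid transporter gene Abca6 (0.748), the phospholipase gene Pnpla8 (0.743) and C1d (0.739). For Slc22a7 they were the clotting factor gene F10 (0.75), the proteasome activator gene Psme1 (0.744) and Gamt (0.735), which makes creatine. All 3 of the last group fell on average over lines, by 0.19, 0.12 and 0.34 on the log2 scale (limma adjusted p = 3.21e-10, 0.000145 and 0.000113). The 3 genes nearest Slc10a1 fell too (-0.17, -0.28 and -0.16, limma adjusted p = 1.07e-06, 0.00238 and 0.00102), though Slc10a1 itself did not pass. None of the genes nearest Slco1a1 or Slco1a4 passed.

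For vehicle levels the nearest genes of Slc10a1 were Akr1d1 (0.653), Akr1c14 (0.618) and C730029A08Rik (0.617). Those of Slco1a1 were Sult2a8 (0.763), the fatty acid binding protein gene Fabp1 (0.736) and Cmah (0.722). Those of Slco1a4 were the angiotensin receptor gene Agtr1a (0.632), the monoamine oxidase gene Maob (0.603) and Hpgd (0.562), which inactivates prostaglandins. Those of Slc22a7 were weaker, Slc25a45 (0.494), Wfdc21 (0.490) and Igfbp2 (0.486). Akr1d1 and Sult2a8 were near the same carrier in both readings.

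Among 16 other measured genes of the Slc10, Slco and Slc22 families, 2 rose, 1 fell and 13 did not pass. Over all genes 15.3% rose and 11.9% fell, so the counts alone do not set these families apart. Their median was 0.01, the same as over all genes. Slc22a5, the carnitine carrier OCTN2, rose by 0.49 ± 0.46 (SD, n = 44 lines, 39 lines higher, adjusted p = 1.16e-07), and Slc10a3 by 0.11 (adjusted p = 0.0110). Slc22a27 was lower (-0.16, adjusted p = 0.0348). Slco1b2, the other main OATP of mouse hepatocytes, read 0.14 (adjusted p = 0.0868). Without the poorly correlated pairs 3 of the 16 genes rose and 1 fell. Slco1b2 (0.18, limma adjusted p = 0.0233) and Slc22a23 (0.09, adjusted p = 0.00238) then passed, and Slc10a3 did not (0.09, adjusted p = 0.0527). Without pairs 1 and 3 of CC015/Unc 3 of these genes rose and 3 fell, and without the dimmest 25% of genes none of the genes left fell. Slc22a7 was thus the carrier of these families with the greatest mean decrease in these data.

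Of 13 export transporters 3 rose and 2 fell, with a median of -0.01, beside 15.3% higher and 11.9% lower over all genes, so that the counts alone do not set the list apart. Abcc3, the basolateral pump that returns bile acids and conjugates to blood, rose by 0.50 ± 0.29 (SD, n = 44 lines, 42 lines higher, adjusted p = 5.89e-13). Abcb4, which moves phospholipid into bile, rose by 0.33 and Abcc2, the canalicular pump for conjugates, by 0.21. The cation exporter gene Slc47a1 (-0.19) and Abcc6 (-0.17) fell. Abcb11, the bile salt export pump, read -0.07 (adjusted p = 0.505).

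**Figure D5:**
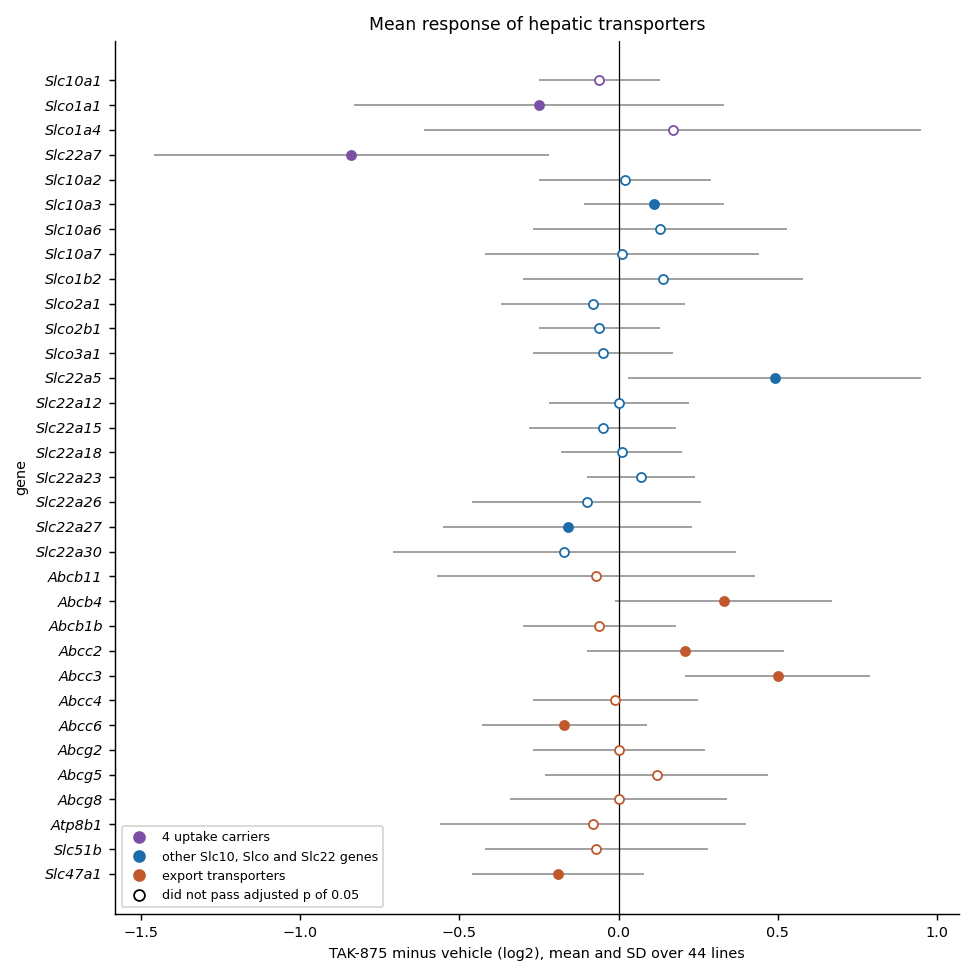
Mean response (TAK-875 minus vehicle, log2, horizontal axis) of the 4 carriers, 16 other genes of their families and 13 export transporters (vertical axis), with the SD over 44 lines as bars. Filled points passed an adjusted p of 0.05. Slc22a7 at -0.84 lies farthest to the left, and Abcc3 (0.50) and Slc22a5 (0.49) farthest to the right.

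Of 22 regulators of these carriers 4 rose and 4 fell, counts near the shares over all genes (15.3% higher and 11.9% lower). Dbp, a circadian transcription factor, rose by 1.32 ± 1.15 (SD, n = 44, adjusted p = 1.20e-08) and Nr1i3, the receptor CAR, by 0.40. Bcl6, a repressor of female-biased genes, fell (-0.46 ± 0.84, adjusted p = 0.00249), and so did Stat5b (-0.28), which carries the growth hormone signal. Of 19 genes known to respond to CAR or PXR, 6 rose, 5 fell and 8 did not pass, with a median of 0.03. Among 16 genes of bile acid synthesis and conjugation 3 rose, 6 fell and 7 did not pass. In both lists the share that passed was above the 27.1% over all genes, a difference that was not tested. Cyp8b1, the sterol hydroxylase that sets cholic acid formation, fell the most of the bile acid genes (-0.61 ± 0.64, adjusted p = 8.39e-07).

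Markers of cell types were counted in the same way, beside 15.3% higher and 11.9% lower over all genes. Of 13 Kupffer cell markers 11 fell and 0 rose (median -0.21), and their mean level ran from 5.87 to 8.24 on vehicle arrays and from 5.03 to 7.89 on TAK-875 arrays. Of 14 endothelial markers 5 fell and of 9 stellate cell markers 4 fell, and 0 rose in either. Of 10 hepatocyte markers 1 rose and 2 fell, counts near the shares over all genes. Of 3 cholangiocyte markers 1 rose, of 6 neutrophil markers 0 changed, of 3 lymphocyte markers 1 fell and of 3 red blood cell markers 2 fell. Lists of 3 or 6 genes are too short to set against these shares. In whole liver, fewer cells of a type and less RNA per cell cannot be told apart. The part of these markers in the carriers' responses was not tested.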

How the data were processed

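Liver RNA was read on 342 Affymetrix HT MG-430 PM arrays, 1 per mouse. The authors deposited log2 expression values, which the submitters' processing notes credit to RMA run in Affymetrix Power Tools; the versions were not given in the sources used here. RMA sets arrays to a common distribution, which can hide a shift of most genes, and compresses low signals. The deposited values still had array medians from 5.4 to 6.22, and the reason was not tested. Of 16397 probe sets, 13083 named 1 gene, 261 several and 3053 none; 13063 matched RefSeq (GRCm38.p6) by gene ID. The members and gene lists were chosen with earlier results of these data known. Fits used limma 3.58.1 in R 4.3.3 on 9093 genes, with eBayes trended on mean level and Benjamini-Hochberg adjustment over all genes (within a line for line tests), called at 0.05. Line tests pooled 127 residual degrees of freedom. Relations and differences between carriers used 100000 permutations. Named were the carriers, for each the 3 highest and 3 lowest lines by vehicle level and by response, the 3 nearest genes, and up to 4 called genes with the largest change from each transporter or regulator list. Slco1b2, Slc22a23, Abcb11, Abcc6, Cyp4a12a, Cyp2d9, Cyp8b1, Kdm5d and Eif2s3y were named after their values were seen. The labels pair mice dosed together; within a pair, deviations from group means had a mean correlation of 0.0301 (-0.0098 between pairs), and 58 of 171 pairs exceeded 0.1. A poorly correlated array lay more than 3 interquartile ranges below the lower quartile. Alternatives changed the probe set, scaling, dim-gene filter, trend, block, and pairs or lines kept. The number of arrays limits the precision. The labels mention more lines, not analysed here, and the series title writes TAK-857 where the labels have TAK-875.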

Additional observations from a re-analysis of the deposited data

Results flagged for a closer look

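Among 45 groups of 4 values of the named lines, 3 held a value far from the others. This is near the share of about 1 in 20 that chance gives. The vehicle mouse of pair 1 in CC004/TauUnc read 10.22 for Slc10a1, against 11.09, 11.03 and 11.10 in the other vehicle mice of that line. The vehicle mouse of pair 1 in CC059/TauUnc read 9.47 for Slc22a7, against 7.85, 8.11 and 8.07. Pair 1 of CC003/Unc differed by 1.30 for Slc22a7, against 0.30, 0.20 and 0.19 in its other pairs.

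The response to TAK-875 differed between lines for Slco1a4 (moderated F = 2.31, limma adjusted p = 0.00633) and Slc22a7 (F = 1.94, adjusted p = 0.0266).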

How the results depend on the processing

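Of 651 recomputed values, 608 kept their direction and side of the threshold (counts, to within 1.5 times). The r of Slc10a1 with Slc22a7, which did not pass, turned from 0.06 to -0.02 without the poorly correlated pairs, and no other value reversed. The fall of Slc22a7 passed in every alternative run (-0.94 to -0.75). The mean response of Slc10a1 passed with arrays centred on their medians (-0.07) and without line CC005/TauUnc (-0.07), with other lines left out between -0.07 and -0.05. Slco1a1 did not pass with its other probe set (-0.15) and lay between -0.34 and -0.17 without 1 strain pair number. F between lines then was 1.78 to 2.28 for Slco1a4 and 1.43 to 1.96 for Slc22a7, and 129 to 691 genes differed between lines instead of 1474. With 1 pair less per line there are fewer samples, and no other cause was tested. Lines called with 1 strain pair number left out were 0 to 2 for Slc10a1, 0 to 2 for Slco1a1, 0 for Slco1a4 and 2 to 6 for Slc22a7. Centring left 0 lines for Slc10a1, and leaving out the poorly correlated pairs gave 2 (CC005/TauUnc and CC028/GeniUnc). Slco1a1 had 1 line (CC041/TauUnc) without those pairs and 1 without pairs 1 and 3 of CC015/Unc, and Slco1a4 had 0 without the dimmest 25% of genes. Slc10a1 minus Slco1a1 was 0.12 to 0.27 and Slc10a1 minus Slco1a4 -0.36 to -0.16 without 1 strain pair number, where they lost their calls in 2 and 3 of 4 cases, and the latter was -0.22, also not passing, without the poorly correlated pairs. Slc10a1 with Slco1a4 gave r = 0.28 on centred arrays. Genes of the other uptake families called lower were 0 to 1 without 1 strain pair number, 0 without the dimmest 25% and 3 without the CC015/Unc pairs. Over all genes, 1388 rose and 1078 fell, 1052 and 1334 with centred arrays and 1178 and 1383 after a further quantile normalization, so that the split depends on scaling. The replicate block with the study pair as the unit gave -0.83 for Slc22a7, -0.26 for Slco1a1, -0.06 for Slc10a1 and 0.17 for Slco1a4. No replicate block gave F of 1.81 for Slco1a4 and 1.77 for Slc22a7, and neither setting changed a call. Alternatives on lists, on lines called, on differences between carriers and on CC015/Unc were chosen after seeing the data. Signal over background was not given per probe set.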
